A study of Botryllus schlosseri with 12 samples.

Results

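The contigs described here are 141 assembled transcripts of the colonial tunicate Botryllus schlosseri. They were lower right after removal of all zooids and buds than in each library taken 6, 18 or 24 h later. They were selected on their measured levels in these same libraries, from a table of 32561 contigs. Levels are in CPM, the estimated count per 1000000 counts of the library, and M was the mean of log2(CPM + 1) over the 3 libraries of a time point. A contig was kept when its mean over 12 libraries was from 5 to under 500 CPM, when the lowest of its 3 later M values lay at least 1.5 above M at 0 h, when M at 6 h exceeded the higher of the other two later values by less than 1, and when its highest 0 h library lay below every later library. Of the table, 25956 contigs lay in that window of mean CPM, and 178 of these had the rise at all later times. Of the 178, 163 also met the limit on the drop after 6 h, and 141 of these had no overlap with the 0 h libraries. The members made up 0.433% of the table and 0.543% of the window.

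The question of the experiment was how a colony's transcriptome responds to extensive injury during the onset of whole-body regeneration. Each library came from 1 subclone of a single isogenic strain, grown on its own slide to stage D of the colony cycle and stripped of zooids and buds. The remains of 3 subclones were collected immediately (0 h post-injury, hpi), and those of 3 more at each of 6, 18 and 24 hpi, kept until then in filtered seawater at 19 °C. All 12 colonies were injured, no uninjured colony was analysed here, and the 0 hpi libraries are the baseline of every rise below. Since all subclones belong to 1 strain, the p-values measure the spread between subclones of that strain. The library totals ran from 2076597 to 3992991 estimated counts, with a median of 2927413. The 3 libraries at 24 hpi lay farther from their own replicates than those of the other time points, at mean log2 distances of 0.75 to 0.85 against 0.60 to 0.74. By that distance replicate 2 at 24 hpi, the library with the lowest total, lay farthest at 0.85, against 0.83 for replicate 1 and 0.75 for replicate 3. By another measure, chi-square per degree of freedom of the counts, replicate 1 stood apart. It differed from the other 2 by 9.81 and 10.5, against 4.01 between those 2 and 3.14 to 7.60 within the other time points. The members' levels at 24 against 18 hpi are also given without replicate 1, a choice made after seeing the data. Levels and overlaps of libraries are not given without replicate 2 or 3, for which only fold changes and calls are reported.

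Colonies of B. schlosseri consist of small filter-feeding zooids that share a gelatinous tunic and a network of blood vessels ending in contractile ampullae. Hemocytes of several kinds circulate in these vessels. After every zooid and bud is removed, a new bud can develop in the vessels of what remains and restore the colony, a process called whole-body regeneration. The study's authors propose that it starts from small pieces of zooid tissue left in the tunic, which then move into the vessels. The injury is also followed by wound closure and by remodelling of the vessels. The table pairs no contig with a gene name, so the members are given by identifier or rank, no role is assigned to any of them, and the identity of the tissue was not checked against marker genes. Colony remains hold many cell types, and in bulk RNA a change in the number of cells of a type and a change in RNA per cell cannot be told apart.

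The 141 members belonged to 120 Trinity genes, the assembler's groups of contigs that it treats as forms of 1 gene, and to 89 components, its larger groups of contigs with shared sequence. A component held up to 5 members. Of the 141 members, 83 shared a component and 35 shared a Trinity gene with another member, so they are not independent observations. In 68 members, or 48.2%, the estimated count had a decimal part in at least 1 library, which shows that reads were divided among contigs of like sequence. That share was 29.3% in the window. The other 73 members had whole counts throughout, and they are called whole below, the rest divided.

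At 0 hpi most members lay in the lower part of the table, though the highest stood at percentile 95.6. Their median M was 2.33 at injury and, by time point, 4.95 (6 hpi), 5.12 (18 hpi) and 5.42 (24 hpi). The median member stood at percentile 17.3 of all contigs by mean CPM in the 0 hpi libraries, and at percentiles 80.2, 81.2 and 87.6 after 6, 18 and 24 h. These levels follow from the rule and are given as a description. The rise, meaning the lowest later M minus M at 0 hpi, had a median of 2.01 and ran from 1.51 to 5.10 on the log2 scale. It was 2 or more in 72 members, 3 or more in 20 and 4 or more in 9. The median member averaged 31.2 CPM over the 12 libraries, and the members spanned 5.07 to 454 CPM.

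**Figure D1:**
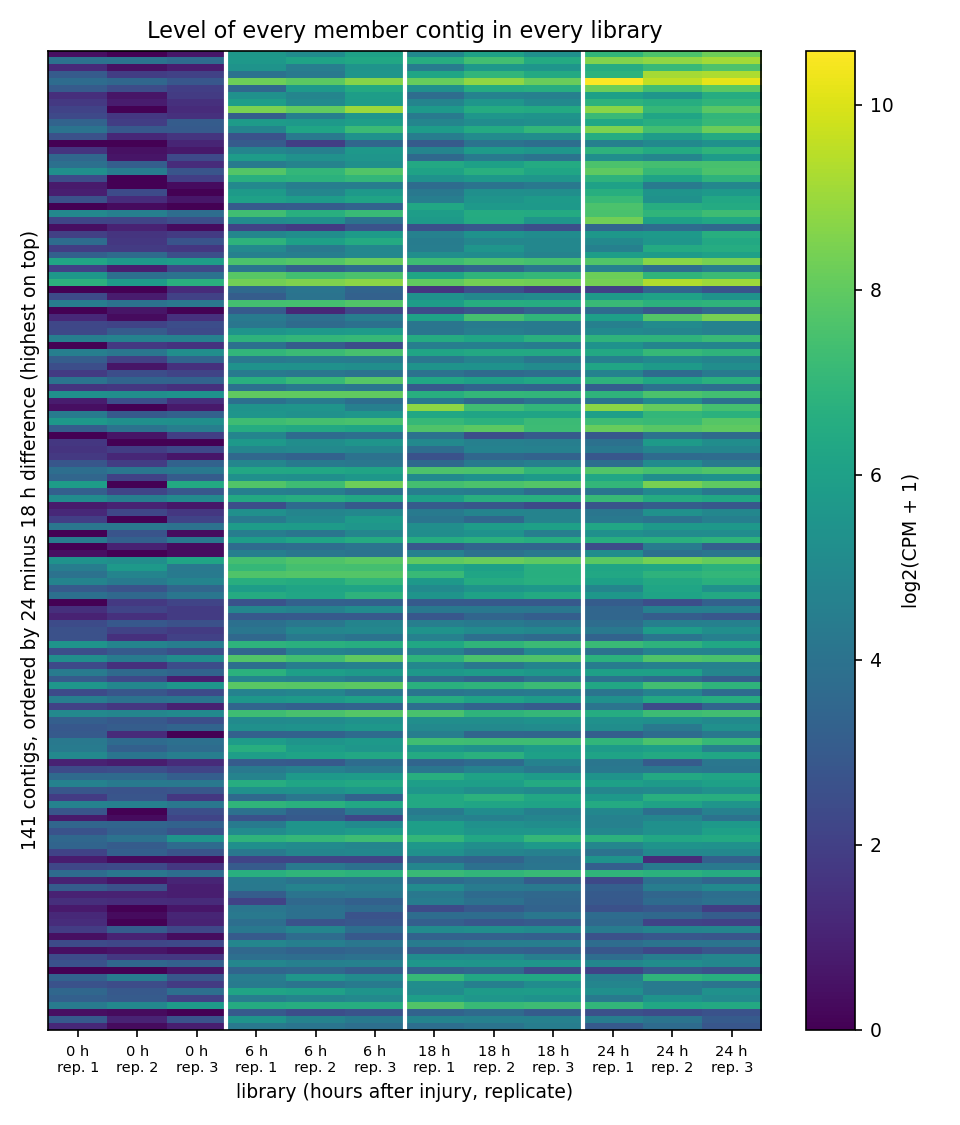
Level of each of the 141 members (rows) in each of the 12 libraries (columns, by hours after injury and replicate), as log2(CPM + 1) in colour, with rows ordered by the difference between 24 and 18 hpi, the highest on top. The 3 columns at 0 hpi are dark in nearly every row, the 9 later columns are brighter, and the top rows are brightest at 24 hpi.

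The members took from 0.116% to 1.29% of a library's counts. Their summed level was 1375 ± 203 CPM at 0 hpi, 8536 ± 892 CPM at 6 hpi, 8025 ± 319 CPM at 18 hpi and 12224 ± 606 CPM at 24 hpi (SD, n = 3 each). As a share of all counts this was 0.138% in the 0 hpi libraries, and 0.854%, 0.802% and 1.22% after 6, 18 and 24 h. Relative to 0 hpi the sum was 6.21-fold after 6 h, 5.84-fold after 18 h and 8.89-fold after 24 h, and the rule required these to be above 1. The sums at 6 and 18 hpi overlapped, with libraries at 7922 to 9558 CPM and 7727 to 8361 CPM. The rule left the step between 18 and 24 hpi free in either direction. All 3 libraries at 24 hpi (11739 to 12903 CPM) lay above all 3 at 18 hpi, a ratio of means of 1.52. Without 24 hpi replicate 1 the mean at 24 hpi was 12321 CPM. The member with the highest mean supplied 19.5% of the 4200 CPM gained in that step. Without the 10 members of highest mean CPM, the sum was 8390 ± 553 CPM at 24 hpi, against 6037 ± 197 CPM at 18 hpi.

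**Figure D2:**
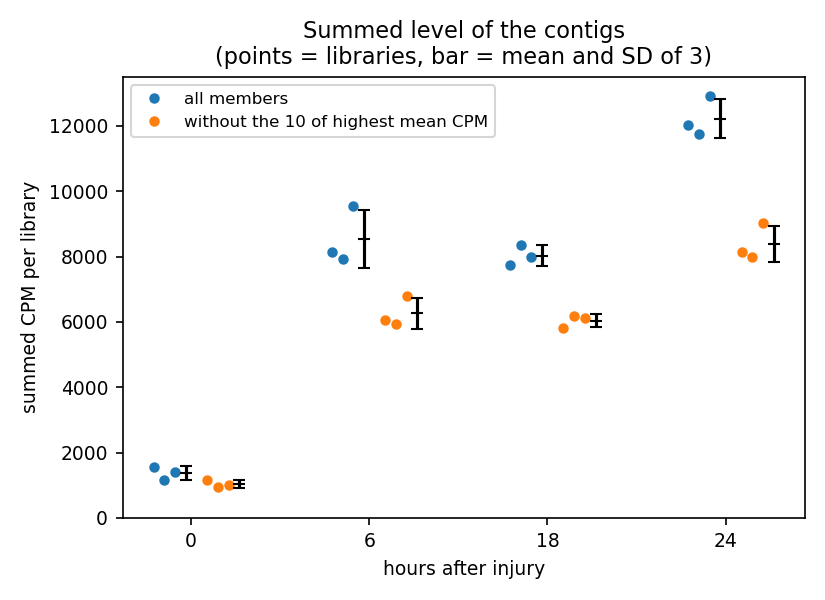
Summed CPM of the members in each library against hours after injury. Blue points are all 141 members and orange points leave out the 10 of highest mean CPM, with the mean and SD of 3 libraries as black bars beside them. The 24 hpi libraries stand above the 18 hpi libraries in both sums.

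No member was at 0 in any later library. At 0 hpi 23 members were at 0 in at least 1 library, none in all 3, and 24 had fewer than 10 estimated counts over the 3 libraries together. For these the size of the rise rests on few reads, while 86 members had 30 counts or more at 0 hpi. The median SD of log2(CPM + 1) within a time point was 0.46 in the members against 0.28 in the window at 0 hpi, 0.29 against 0.26 at 6 hpi, 0.34 against 0.22 at 18 hpi, and 0.46 against 0.32 at 24 hpi. The members' libraries were thus farther apart than those of the window at each time point, with the smallest gap at 6 hpi.

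TRINITY_DN14808_c2_g4_i1.p1 had the largest rise of the whole members. It had 0.34, 0 and 0.29 CPM at 0 hpi, 22.7, 17.5 and 15.2 CPM at 6 hpi, 23.9, 15.1 and 18.6 CPM at 18 hpi, and 35.5, 14.0 and 16.4 CPM at 24 hpi. Its later libraries lay close together apart from 1 library at 24 hpi, and its 0 hpi libraries held 2 counts in all. The ratio to 0 hpi was therefore wide, at 95.7 (95% exact interval from counting error alone, 26.0 to 798) at 6 hpi, 97.5 (26.6 to 811) at 18 hpi and 121 (33.2 to 1008) at 24 hpi. The log2 fold change of 24 against 18 hpi was 0.30 ± 0.30 (SE), with an adjusted p of 0.922 by the quasi-likelihood test of edgeR (Benjamini-Hochberg adjusted).

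TRINITY_DN14262_c1_g6_i1.p1 had the highest mean of all members. It had 12.2, 10.5 and 6.35 CPM at 0 hpi, 302, 241 and 408 CPM at 6 hpi, 277, 447 and 284 CPM at 18 hpi, and 1534, 756 and 1172 CPM at 24 hpi. The 6 and 18 hpi libraries overlapped and every 24 hpi library lay above them. Its log2 fold changes against 0 hpi were 5.01 ± 0.34 after 6 h, 4.95 ± 0.34 after 18 h and 6.82 ± 0.37 after 24 h (SE), contrasts the rule used. At 24 against 18 hpi the log2 fold change was 1.87 ± 0.28 (SE, adjusted p = 0.0302 by edgeR with Benjamini-Hochberg adjustment). That call was lost with the library total as the only scaling (adjusted p = 0.0710 by edgeR) and with the replicate number as a block (adjusted p = 0.112 by edgeR). It was also lost on leaving out 0 hpi replicate 2, 6 hpi replicate 1, 18 hpi replicate 1 or 3, or 24 hpi replicate 3, with adjusted p by edgeR of 0.0563 to 0.258. Its estimates were divided in 10 libraries although its Trinity gene held no other contig.

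**Figure D3:**
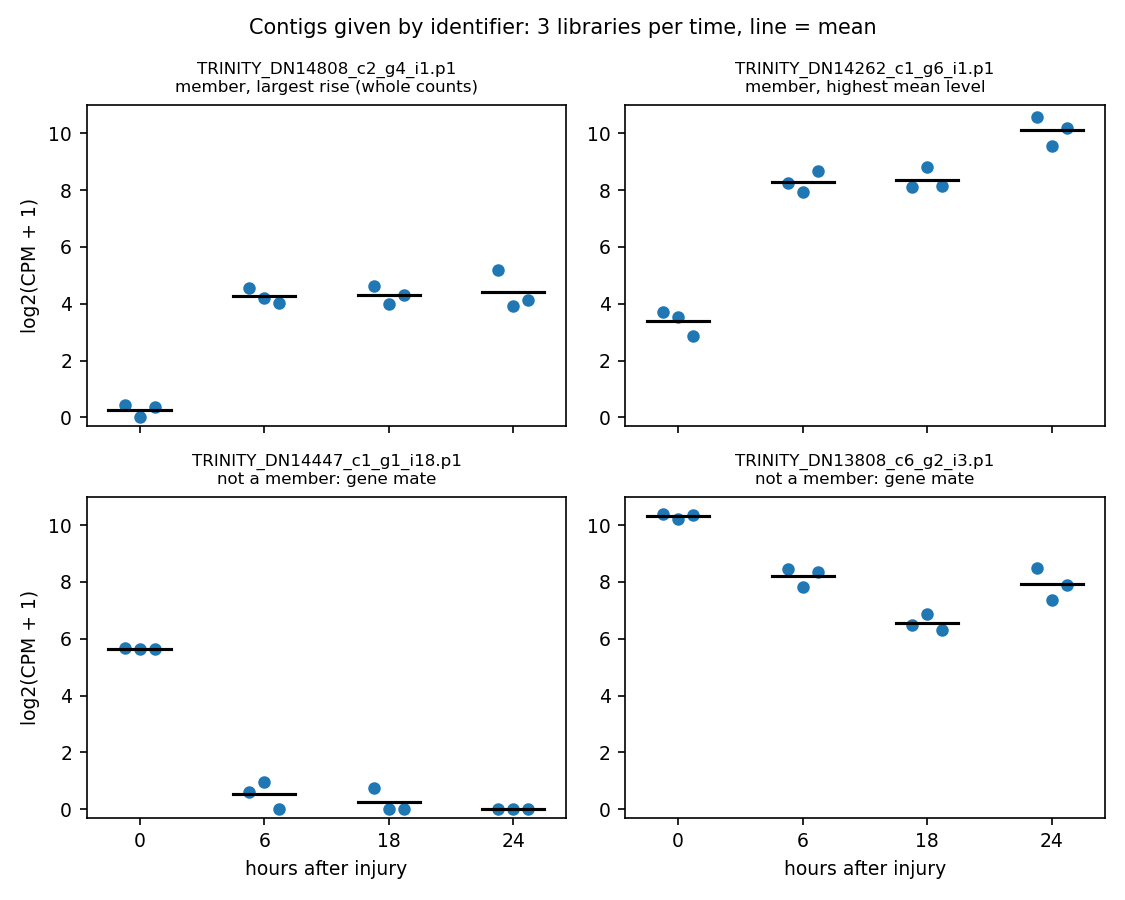
Level as log2(CPM + 1) at 0, 6, 18 and 24 h after injury of the 4 contigs given by identifier, with 1 point per library and a line at the mean of 3. The upper panels are members and rise after 0 h, and the lower panels are contigs of a member's Trinity gene that are no members themselves and fall after 0 h.

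The 10 members with the largest rise spanned 3.80 to 5.10 on the log2 scale and came from 8 components. Only 1 of them was whole. The first of the 10 had 0.34, 0 and 0.58 CPM at 0 hpi, 47.4, 34.5 and 65.8 CPM at 6 hpi, 31.5, 66.3 and 38.3 CPM at 18 hpi, and 123, 195 and 301 CPM at 24 hpi. The second peaked instead at 6 hpi, with 346, 261 and 503 CPM, after 3.41, 0 and 1.45 CPM at 0 hpi. It then had 50.5, 90.1 and 86.3 CPM at 18 hpi and 412, 131 and 237 CPM at 24 hpi. The fourth reached its level late, with 0.34, 0 and 0.66 CPM at 0 hpi, 42.5, 43.9 and 23.0 CPM at 6 hpi, 446, 163 and 126 CPM at 18 hpi and 422, 267 and 177 CPM at 24 hpi. Members of like rise thus differed in when they were highest.

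The 10 members of highest mean CPM (142 to 454 CPM) came from 6 components, and 3 of them were also among the 10 of largest rise. They supplied 31.4% of the members' summed CPM at 24 hpi. The second by level, a whole contig, had 112, 57.4 and 104 CPM at 0 hpi and already 320, 368 and 425 CPM at 6 hpi. It had 253, 326 and 311 CPM at 18 hpi and 332, 640 and 528 CPM at 24 hpi, so each 24 hpi library lay above each 18 hpi library, the nearest by a small margin. The third by level, also whole, had 41.0, 36.6 and 71.0 CPM at 0 hpi, 168, 204 and 237 CPM at 6 hpi, 252, 283 and 251 CPM at 18 hpi and 239, 334 and 271 CPM at 24 hpi. At 0 hpi 41 members had a mean of 10 CPM or more, so the set held both contigs near 0 and contigs already well expressed at injury.

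Among all 31383 contigs that passed edgeR's filter on low counts, 4.63% were called higher than at 0 hpi after 6 h, 2.93% after 18 h and 3.54% after 24 h, a call being an adjusted p under 0.05 with a log2 fold change over 1. All 141 members passed that filter. Of these, 135 were called after 6 h, 135 after 18 h and 138 after 24 h. All 3 times called 130 members, where 1.14% of all tested contigs, 358 in number, were called higher at all 3. The rule used these contrasts, which share the 0 hpi libraries, so the counts describe the choice of members. The members' median log2 fold change was 2.61 after 6 h, 2.52 after 18 h and 2.77 after 24 h.

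A pair of members met the rule but were called against 0 hpi at no later time. The sixth by level, a divided contig, had 58.6, 0 and 85.5 CPM at 0 hpi and 128 to 344 CPM in the later libraries. Its log2 fold changes against 0 hpi were 1.86 to 2.31 with SEs of 1.04 to 1.06, and 1 of its 0 hpi libraries was at 0 beside 2 high ones. The other had 6.98, 1.45 and 0 CPM at 0 hpi and 7.89 to 22.0 CPM later. Its highest 0 hpi library lay just under its lowest later one.

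After 6 hpi the members took different courses. The mean was highest in the 6 hpi libraries for 51 members, in those of 18 hpi for 39 and in those of 24 hpi for 51. It rose at every step in 32 members and fell at every step after 6 hpi in 21, and in 49 it was lowest at 18 hpi of the 3 later times. The 3 later means lay within 0.5 log2 units of each other in 44 members and within 1 in 92, and they were over 2 apart in 16. The largest gain over 6 hpi was in a divided contig, the eleventh by level, with 14.5, 18.4 and 44.4 CPM at 6 hpi, 72.8, 125 and 84.3 CPM at 18 hpi and 115, 565 and 616 CPM at 24 hpi. The largest drop after 6 hpi was in a whole contig of low level, with 16.6, 14.2 and 11.5 CPM at 6 hpi, 4.27, 6.87 and 9.29 CPM at 18 hpi, and 5.25, 6.26 and 2.82 CPM at 24 hpi. Its difference of 0.99 stood just under the limit of 1.

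Against 6 hpi, 1.6% of all tested contigs were called higher and 4.76% lower after 18 h, and 2.01% were called higher and 4.13% lower after 24 h. Of the members, 9 were called higher and 12 lower after 18 h, and 23 were called higher and 1 lower after 24 h. The rule capped the drop after 6 hpi, so the lower counts are bounded by it and nothing is read from them. The median log2 fold change of the members was -0.15 for 18 hpi over 6 hpi and 0.10 for 24 hpi over 6 hpi.

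The step from 18 to 24 hpi was the one whose direction the rule did not set, since both means enter it in the same way, each bounded from below by the rise and both from above by the limit on mean CPM. In means of log2(CPM + 1), 81 of 141 members (57.4%) were higher at 24 than at 18 hpi, against 36.5% of the contigs in the window. The median difference was 0.11 in the members, ranging from -0.94 to 2.14, and -0.10 in the window. Every 24 hpi library lay above every 18 hpi library in 35 members (24.8%), where 4.25% of the window did so. Every 24 hpi library lay below every 18 hpi library in 11 members (7.80%), where 8.81% of the window did so. The 35 members came from 21 components. Without 24 hpi replicate 1 the median difference was 0.25 in the members and -0.15 in the window. The remaining 2 libraries lay above every 18 hpi library in 51 members (36.2%) and in 11.7% of the window, and below in 15 members (10.6%) and in 25.9% of the window.

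By the quasi-likelihood test of edgeR, Benjamini-Hochberg adjusted over all tested contigs, 0.0223% of contigs, 7 in number, were called higher at 24 against 18 hpi and 0.00319%, a single contig, lower. Of the 7, 3 were members and 1 was another contig of a member's Trinity gene, described below. None of the members was called lower. At an unadjusted p under 0.05, 42 members (29.8%) were higher and 4 (2.84%) lower, against 4.61% and 2.41% of all tested contigs. DESeq2 called 12 members higher, where it called 37 of all contigs (0.118%) higher and 11 (0.0351%) lower. By limma-voom 4 members were higher, of 11 contigs (0.0351%) in all, and 0 contigs (0%) lower. Neither called a member lower. The 3 calls were lost when 18 hpi replicate 1, 18 hpi replicate 3 or 24 hpi replicate 3 was left out, and 10 members were called without 24 hpi replicate 1. Without that library the calls over all contigs were 148 higher (0.465%) and 25 lower (0.0786%). Without 24 hpi replicate 2, 3 members were called higher, where 7 of 31939 contigs were called higher and 3 lower. The members' median log2 fold change by edgeR was 0.28 with all libraries. It was 0.39 without 24 hpi replicate 1, 0.16 without replicate 2 and 0.28 without replicate 3. With the library total as the only scaling, 1 member was called.

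One of the 3 was the contig of highest mean described above. Another, the seventh by level, had 376, 459 and 558 CPM at 24 hpi, against 94.9, 168 and 88.5 CPM at 18 hpi. It had 48.3, 68.8 and 78.0 CPM at 6 hpi, against 14.9, 15.3 and 11.8 CPM at 0 hpi, so its libraries stepped up at each time with no overlap between neighbouring times. Its log2 fold change of 24 against 18 hpi was 2.11 ± 0.28 (SE, adjusted p = 0.0148 by edgeR with Benjamini-Hochberg adjustment). The third of the 3, twelfth by rise, had 114, 95.3 and 120 CPM at 24 hpi, against 26.3, 46.2 and 31.6 CPM at 18 hpi. It had 58.2, 31.8 and 57.0 CPM at 6 hpi, which overlapped with its 18 hpi libraries. Its log2 fold change of 24 against 18 hpi was 1.76 ± 0.26 (SE, adjusted p = 0.0243 by edgeR with Benjamini-Hochberg adjustment).

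**Figure D4:**
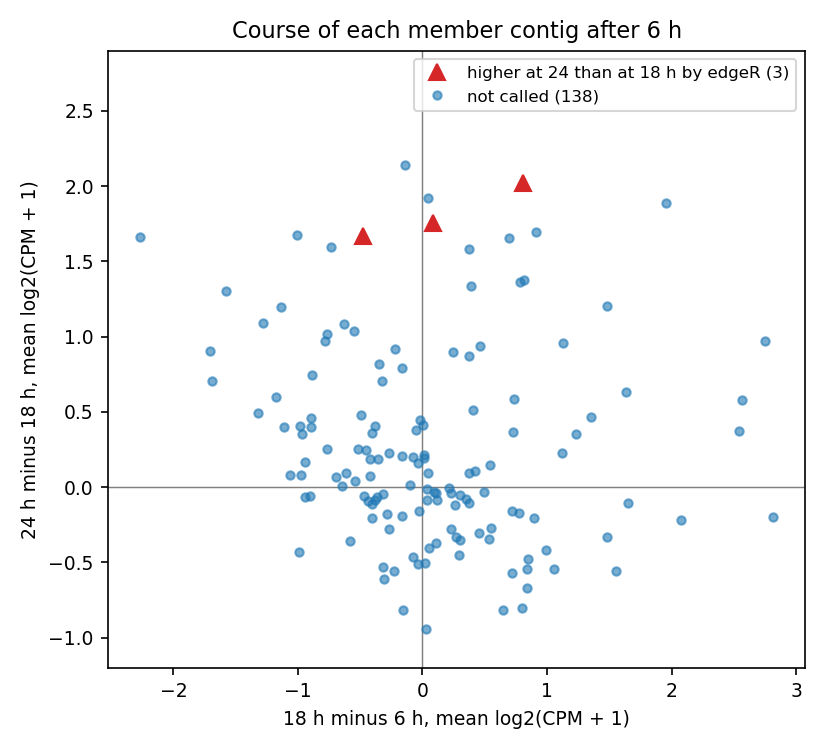
Difference in mean log2(CPM + 1) between 24 and 18 hpi (vertical) against that between 18 and 6 hpi (horizontal), with 1 point per member. Red triangles are the 3 members called higher at 24 than at 18 hpi by edgeR and blue circles the other 138. Both axes share the 18 hpi libraries, and points lie in all 4 quadrants.

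The late gain moved with the division of counts. In the 68 divided members the median difference of 24 minus 18 hpi was 0.40, 50 were higher at 24 hpi in means, and 25 (36.8%) had every 24 hpi library above every 18 hpi library. In the 73 whole members the median was -0.04, 31 were higher at 24 hpi, and 10 (13.7%) had every 24 hpi library above every 18 hpi library. Without 24 hpi replicate 1 the medians were 0.42 in the divided and 0.10 in the whole members, so the sign in the whole members changed without that library. The sign also depends on the scaling by library total, under which whole contigs of the window had a median of -0.10 with all libraries. All 3 members called were divided. In the window the median was -0.11 for divided and -0.10 for whole contigs, and 5.07% of divided and 3.92% of whole contigs had every 24 hpi library above every 18 hpi library. The part of divided reads in the late gain was not tested. The divided members also had the higher level, with a median of 49.3 CPM against 20.6 CPM in the whole members.

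Members of a component mostly had differences of one sign in this step. In 14 components with 3 or more members, 49 members in all, the 24 minus 18 hpi differences were all above 0 in 6 components, all below 0 in 5 and mixed in 3. The median difference in the window was -0.10, so 0 is not its centre. A component counted as all below 0 had differences of -0.11 to -0.06, around that median. The share of components with 1 sign in the window is not given here. In 4 components every difference was above 1. These 4 held 15 members, 3 of them whole, and included the 3 called members and 14 of the 35 members whose 24 hpi libraries all lay above those at 18 hpi. The other 126 members held the remaining 21.

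The component of the contig of highest mean held 3 members in 3 Trinity genes, and its differences were 1.66 to 2.02. A component of 5 members in 2 Trinity genes had differences of 1.02 to 2.14, and one of 4 members in 3 Trinity genes, 2 of them whole, had 1.38 to 1.69. At the other end, a component of 5 members in 5 Trinity genes, all whole, had differences of -0.94 to -0.50. These 5 contigs were low at 0 hpi and averaged 5.07 to 10.6 CPM over the 12 libraries. The one with the lowest difference of all members averaged 8.43 ± 3.16 CPM at 24 hpi, against 16.8 ± 4.16 CPM at 18 hpi (SD, n = 3 each), and its libraries at these times did not overlap. It had 18.6, 16.3 and 13.7 CPM at 6 hpi and 1.36, 0.25 and 0.87 CPM at 0 hpi. Its log2 fold change of 24 against 18 hpi was -0.92, with an adjusted p of 0.577 by edgeR with Benjamini-Hochberg adjustment.

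**Figure D5:**
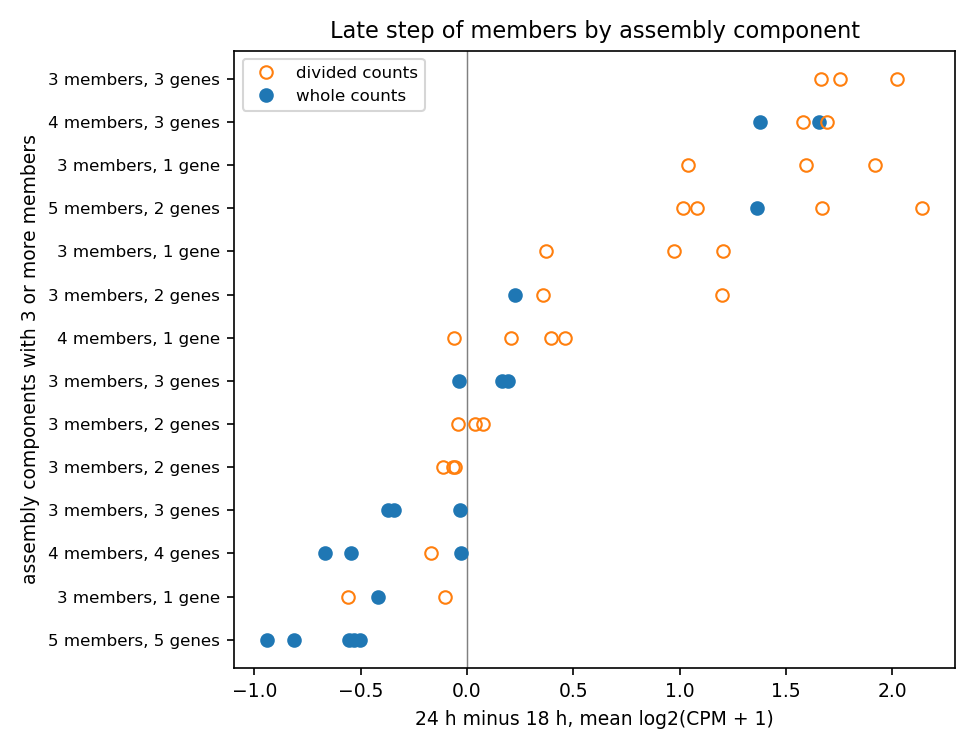
Difference in mean log2(CPM + 1) between 24 and 18 hpi for the 49 members of the 14 components with 3 or more members, 1 row per component, ordered by its median. Filled blue points are members with whole counts and open orange points members with divided counts. The 4 upper rows lie wholly above 1 and the 5 lower rows wholly below 0.

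The rule did not read the other contigs of the members' Trinity genes, called gene mates here. There were 104 gene mates, of which 100 passed the filter on low counts. Against 0 hpi, after 6 h 38 mates were called higher and 4 lower, after 18 h 27 were higher and 6 lower, and after 24 h 34 were higher and 5 lower. Of all tested contigs, 4.63% were called higher and 5.03% lower after 6 h, 2.93% higher and 7.08% lower after 18 h, and 3.54% higher and 6.54% lower after 24 h. At all 3 times 16 mates were called higher and 4 lower, where 1.14% of all tested contigs were higher and 2.9% lower at all 3, and 42 mates were called at none. At 24 against 18 hpi edgeR called 1 mate higher and 0 lower, against 0.0223% and 0.00319% of all tested contigs. No mate was called in this step with the library total alone or the replicate block. At an unadjusted p under 0.05, 24 mates (24%) were higher and 2 (2%) lower, against 4.61% and 2.41% of all tested contigs. The median log2 fold change in this step was 0.41 in the mates and 0.28 in the members. Of the 104 mates, 102 had divided counts, so their values are not separate from the members'.

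The remaining contigs of the members' components, in other Trinity genes, numbered 130, and 126 passed the filter. Relative to 0 hpi, 44 of these (34.9%) were called higher and 2 lower after 6 h, 28 (22.2%) higher and 4 lower after 18 h, and 44 (34.9%) higher and 4 lower after 24 h. The shares over all tested contigs are those given for the gene mates, 4.63%, 2.93% and 3.54% higher and 5.03%, 7.08% and 6.54% lower after 6, 18 and 24 h. Between 24 and 18 hpi, where 0.0223% of all tested contigs were called higher and 0.00319% lower, edgeR called none of the 126. At an unadjusted p under 0.05, 14 of the 126 were higher and 4 lower, against 4.61% and 2.41% of all tested contigs. DESeq2 called 1 of them higher and limma-voom 0, and neither any lower. These contigs share sequence with the members, and reads can be divided between them.

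Adding up all contigs of a Trinity gene sets a member's rise beside that of the gene's total. The totals include the members, which the rule chose for their rise, so they rise in part by that choice. In 47 Trinity genes a member stood beside other contigs. The gene total met the rule in 15 of them, had a rise of 1.5 or more in 19 and a rise above 0 in 44. The same counts over other Trinity genes with several contigs are not given here, so these numbers are a description only. The median rise of these totals was 1.28. The members made up a median of 20.8% of the gene's total at 0 hpi and 56.4% in the later libraries. Their share was 100% at all times in genes where every contig was a member. In the 3 remaining genes the lowest later total was at or below that at 0 hpi.

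TRINITY_DN14447_c1_g1_i18.p1 fell in a gene whose members rose. It had 50.2, 49.4 and 48.4 CPM at 0 hpi, 0.52, 0.96 and 0 CPM at 6 hpi, 0.68, 0 and 0 CPM at 18 hpi and 0 in all 3 libraries at 24 hpi. The 3 members among the gene's 5 contigs summed to 9.12 ± 2.16 CPM at 0 hpi, 136 ± 30.5 CPM at 6 hpi, 102 ± 31.5 CPM at 18 hpi and 313 ± 64.5 CPM at 24 hpi (SD, n = 3 each). The total of the gene was 69.1 ± 8.40 CPM at 0 hpi, 171 ± 19.7 CPM at 6 hpi, 114 ± 29.9 CPM at 18 hpi and 322 ± 65.1 CPM at 24 hpi. The members' share of it was 13.2% at 0 hpi and 97.0% at 24 hpi. The gene total rose less than its members did, and its libraries at every later time lay above those at 0 hpi.

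TRINITY_DN13808_c6_g2_i3.p1 was the contig of a gene whose total fell. It had 1335, 1175 and 1307 CPM at 0 hpi, 347, 227 and 327 CPM at 6 hpi, 88.5, 116 and 77.5 CPM at 18 hpi and 361, 165 and 237 CPM at 24 hpi. Its log2 fold changes against 0 hpi were -2.10 after 6 h, -3.92 after 18 h and -2.40 after 24 h, with adjusted p of 1.76e-05, 4.29e-08 and 3.49e-06 by edgeR with Benjamini-Hochberg adjustment. The 2 members among the gene's 3 contigs summed to 37.2 ± 9.23 CPM at 0 hpi, 265 ± 49.1 CPM at 6 hpi, 280 ± 56.5 CPM at 18 hpi and 443 ± 84.8 CPM at 24 hpi (SD, n = 3 each). The gene total was 1309 ± 87.5 CPM at 0 hpi, 566 ± 113 CPM at 6 hpi, 374 ± 76.2 CPM at 18 hpi and 697 ± 183 CPM at 24 hpi. Here the members rose while the gene as a whole was lower at every later time than at 0 hpi, with no overlap of libraries.

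The edges of the set were close in value. The 3 members with the smallest rise had 1.507, 1.507 and 1.509, and the 3 contigs just outside had 1.489, 1.491 and 1.49982. Of the contigs that met every other condition, 15 were left out by a drop of 1 or more after 6 hpi, 22 by an overlap of libraries, 6 by a mean under 5 CPM and 3 by a mean of 500 CPM or more. The drops just inside the limit were 0.983, 0.984 and 0.990, and those just outside 1.16, 1.19 and 1.24. The lowest means inside were 5.07, 5.22 and 5.22 CPM, and the means just under the limit were 4.82, 4.66 and 4.10 CPM. The highest means inside were 454, 315 and 199 CPM, and those above the limit were 573, 679 and 684 CPM.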

How the data were processed

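RNA was measured in 12 subclones, 3 at each of 0, 6, 18 and 24 hpi. Per the study's methods and the submitters' processing notes, the authors removed ribosomal reads, trimmed reads with Trimmomatic 0.30, assembled them with Trinity, kept open reading frames, collapsed similar transcripts and counted reads with kallisto 0.43.1. The deposited values are estimated counts per contig, not normalized, which need not be whole because reads shared by like contigs are divided among them. They were scaled to CPM by library total for the rule, with a pseudocount of 1, and rounded to whole numbers for tests. No column belonged to another sample (0 columns).

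Contigs were tested in 1 fit over all 12 libraries with edgeR 4.0.16 (TMM, robust quasi-likelihood test, R 4.3.3), with Benjamini-Hochberg adjustment over 31383 contigs. The filter on low counts removed 1178. Contigs were called at an adjusted p under 0.05 with a log2 fold change beyond 1. DESeq2 1.42.0, limma-voom (limma 3.58.1), other scalings, no filter, no threshold on the fold change, a replicate block and leaving out each library were alternatives. The scripts were tested on simulated data. Replicates differed beyond sampling noise (chi-square per degree of freedom of at least 3.14). At these depths of 2076597 to 3992991 counts, counting error limits the precision for members with few counts at 0 hpi. The spread between replicates and the division of reads limit it as well.

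The members and the lists were chosen with earlier results of these data known. At most 2 identifiers that rose and 2 that fell are given. Those that rose are the whole member with the largest rise and the member with the highest mean CPM. Those that fell are the 2 gene mates with a mean of at least 5 CPM, called lower at all 3 later times, with the lowest mean log2 fold change. Other members are given by rank: among the first 10 by rise or by mean CPM, the highest and lowest differences between times, and those next to each limit. Members called in the step from 18 to 24 hpi, and those called at no time against 0 hpi, were singled out after their values were seen, as was the split into whole and divided members. Contig sequences were not used here.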

Additional observations from a re-analysis of the deposited data

Results flagged for a closer look

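By the quasi-likelihood test of edgeR (Benjamini-Hochberg adjusted), 3 members were higher at 24 than at 18 hpi, a step in which 8 contigs of 31383 were called in all. The log2 fold changes were 2.11 (adjusted p = 0.0148 by edgeR) in the seventh member by level, 1.87 (adjusted p = 0.0302 by edgeR) in TRINITY_DN14262_c1_g6_i1.p1 and 1.76 (adjusted p = 0.0243 by edgeR) in the twelfth member by rise. In each of them all 3 libraries at 24 hpi lay above all 3 at 18 hpi, and each had divided counts. The seventh by level and TRINITY_DN14262_c1_g6_i1.p1 belong to 1 component. At 24 hpi replicate 1 differed from its replicates by a chi-square per degree of freedom of 9.81 and 10.5, against 4.01 between the other 2. Without it, 10 members and 173 contigs in all were called in this step.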

How the results depend on the processing

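The rule gave 141 members. It gave 116 with TMM library sizes, all of them among the 141, 158 with a pseudocount of 0.5 and 145 after thinning to the smallest library, with 139 and 126 of the 141 among them. Whole contigs alone gave 73, and the rule on gene totals gave 90 Trinity genes, 88 of them genes of a member. In 73 of the members' 120 Trinity genes the member is the only contig, so their totals met the rule in advance. Of the other 47 genes, 15 met it. Leaving out 1 library gave 132 to 170. The counts of members called against 0 hpi stayed within 1.5 times under every alternative.

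Of members called higher at 24 against 18 hpi, 3 in the main analysis, DESeq2 gave 12, the library total alone 1, and leaving out 1 library 0 to 10. The call of TRINITY_DN14262_c1_g6_i1.p1 was lost under the library total alone and the replicate block. None was called lower under any alternative, and at an unadjusted p under 0.05 edgeR had 4 lower. Of members lower at 18 against 6 hpi, 12 in the main analysis, the library total alone gave 7 and leaving out 1 library 4 to 16, with 4 without 6 hpi replicate 3 or 18 hpi replicate 2, 5 without 18 hpi replicate 1 and 6 without 18 hpi replicate 3. Of members lower at 24 against 6 hpi, 1 in the main analysis, limma-voom gave 6, no threshold on the fold change 5 and leaving out 1 library 0 to 5. Of gene mates lower at 6 hpi, leaving out 1 library gave 3 to 7, with 7 without 0 hpi replicate 3. Of those lower at 18 hpi, the library total alone gave 3 and leaving out 1 library 3 to 7, with 3 without 18 hpi replicate 2. Of those lower at 24 hpi, leaving out 1 library gave 3 to 6, with 3 without 24 hpi replicate 3. Without 24 hpi replicate 1, chosen after seeing the data, 51 members had every 24 hpi library above every 18 hpi library, against 35 with it, and 15 had every one below, against 11. In the window the shares also grew, from 4.25% to 11.7% above and from 8.81% to 25.9% below. With fewer libraries any contig meets non-overlap more easily. The log2 fold change of TRINITY_DN14808_c2_g4_i1.p1 at 24 against 18 hpi, not called, ran from -0.15 without 24 hpi replicate 1 to 0.50. The causes were not tested. Scaling by the library total alone moved the median of all contigs by over 0.1, to 0.17 at 18 against 0 hpi and 0.14 at 18 against 6 hpi. It did so also at 24 against 18 hpi, from 0.01 to -0.09. The differences in M and the overlaps of libraries given for that step are on the scale of the library total.

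Replicate numbers did not pair the libraries, since deviations of same-numbered libraries correlated at -0.14 to 0.09 and those of other pairs at -0.09 to 0.12. With the replicate block, 1 member was called higher at 24 against 18 hpi and 2 lower at 24 against 6 hpi, and the other counts of calls stayed within 1.5 times. Depth limits the rise of members with few counts at 0 hpi, and division of reads limits every value of a divided contig.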
